A study of Mus musculus with 6 samples.

Results

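The 10 genes described here are the 3 receptors of the Nr4a family (Nr4a1, Nr4a2 and Nr4a3) and 7 early response genes (Fos, Fosb, Jun, Junb, Egr1, Ier2 and Atf3). They were taken by symbol from a table of 55450 genes, and each symbol matched exactly 1 row, annotated as protein-coding. The table holds RNA sequencing counts from the left liver lobe of 6 mice, with 1 library per mouse. The knockout (KO) group was 3 mice with loxP-flanked (fl/fl) alleles of LKB1, a kinase encoded by Stk11, and the wild type (WT) group was 3 mice whose genotype is labelled normal. All 6 mice, labelled strain C57BL/J, received AAV8 Cre, an adeno-associated virus carrying the Cre recombinase, at 6 weeks of age and were killed for liver collection 4 weeks after the virus, at an age of 10 weeks. The labels do not give the promoter that drives Cre, the littermate status of the groups, the sex of the mice, or the time of day and feeding state at collection.

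Nr4a1, Nr4a2 and Nr4a3 are orphan nuclear receptors, that is, transcription factors with the fold of hormone receptors but no established classical ligand, and their activity depends largely on how much protein is made. Their genes are silent or low at rest and are switched on within minutes by hormones and stress. In hepatocytes the hormone glucagon raises cyclic AMP, which activates the transcription factor CREB and its CRTC coactivators, and Nr4a genes are well-known targets of that route. LKB1 activates the SIK kinases, which hold CRTC coactivators in the cytoplasm. Fos, Fosb, Jun and Junb encode subunits of the AP-1 transcription factor, Egr1 a zinc finger factor, Ier2 a small nuclear protein and Atf3 a stress-induced factor of the ATF family. These early genes also respond to growth factors, cytokines and tissue stress through the ERK, JNK and p38 kinases, with serum response factor acting on several of them. Placing the 3 receptors beside the 7 early genes asks whether the receptors moved alone or with a general early response.

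The promoters are shown because CREB binds a site called the CRE, whose core is TGACG, and the receptors and the AP-1 genes differ in how many such cores lie before their start. RefSeq promoter windows of build GRCm38.p6 (250 bases before and 50 after the annotated start) were matched by symbol for 8 of the 10 genes. The sequences below are the parts of those windows before the start that lie outside annotated exons, written 5′ to 3′ on the strand of the gene. They cover chr15:101266596-101266845 (plus strand) for Nr4a1, chr2:57124004-57124253 (minus strand) for Nr4a2, chr4:48045055-48045152 (plus strand) for Nr4a3, chr12:85473640-85473889 (plus strand) for Fos and chr4:95052223-95052472 (minus strand) for Jun. Capitals mark TGACG or its reverse complement CGTCA, and TATAAA or its reverse complement TTTATA.
Nr4a1: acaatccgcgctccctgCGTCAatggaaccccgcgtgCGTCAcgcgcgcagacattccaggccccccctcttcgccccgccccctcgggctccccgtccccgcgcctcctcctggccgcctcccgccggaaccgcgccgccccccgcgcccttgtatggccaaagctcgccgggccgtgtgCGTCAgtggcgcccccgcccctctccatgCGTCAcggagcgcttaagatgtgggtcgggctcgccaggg
Nr4a2: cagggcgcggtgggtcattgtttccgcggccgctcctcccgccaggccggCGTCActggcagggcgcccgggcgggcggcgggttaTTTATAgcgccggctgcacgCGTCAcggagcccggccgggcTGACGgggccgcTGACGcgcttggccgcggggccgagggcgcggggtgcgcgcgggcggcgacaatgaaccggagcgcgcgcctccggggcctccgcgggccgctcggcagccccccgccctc
Nr4a3: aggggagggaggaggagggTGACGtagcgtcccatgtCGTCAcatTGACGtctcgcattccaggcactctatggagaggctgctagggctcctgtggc
Fos: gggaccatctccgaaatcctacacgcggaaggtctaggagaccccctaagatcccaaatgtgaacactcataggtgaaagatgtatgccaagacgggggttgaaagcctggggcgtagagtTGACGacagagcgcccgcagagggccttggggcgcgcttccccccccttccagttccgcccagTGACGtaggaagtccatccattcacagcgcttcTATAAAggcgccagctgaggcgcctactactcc
Jun: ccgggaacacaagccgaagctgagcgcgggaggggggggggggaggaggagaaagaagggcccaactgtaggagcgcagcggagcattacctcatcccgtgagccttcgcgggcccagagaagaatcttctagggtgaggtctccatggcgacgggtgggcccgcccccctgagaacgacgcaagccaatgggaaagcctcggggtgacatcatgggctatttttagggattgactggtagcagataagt
In the full windows of 300 bases, Nr4a1, Nr4a2 and Nr4a3 each held 4 TGACG cores on either strand, Fos held 2, Fosb, Junb and Atf3 held 1 each and Jun held 0. Of 32851 promoter windows in the table, 20.8% held at least 1 core, 5.01% at least 2 and 0.231%, or 76 windows, at least 4. The cores of Nr4a1 began 233, 213, 69 and 40 bases before the start, and those of Nr4a3 231, 213, 205 and 147 bases before it, the last within an annotated exon and so not printed. The TATAAA box of Fos began 33 bases before its start. None of the 8 windows held the full palindrome TGACGTCA (1.79% of all windows) or the AP-1 site TGANTCA (7.81%), searched on both strands. Nor did any hold the Nr4a binding site AAAGGTCA (1.51%) or a CArG box, the site of serum response factor (1.63%). Only exact matches were counted, so a near variant such as tgacatca before Jun was not. Egr1 and Ier2 had no window, and sequence outside the windows was not searched. A match of letters is a description of the sequence and not evidence of binding, and the windows are rich in G and C, with 74.4%, 80.0% and 61.2% in the printed parts of Nr4a1, Nr4a2 and Nr4a3.

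Across the 6 libraries the total count ran from 47659122 to 56147667. Stk11 was at 22.1, 14.4 and 11.4 CPM, that is, counts scaled to a common library size, in KO 1 to 3. In the WT libraries it was at 64.2 to 69.7 CPM, so it was lower in every library labelled KO. Replicate 1 of each group had Xist counts and almost no counts of Y-linked genes, and replicates 2 and 3 of each group had the reverse, so each group mixed 1 library of the first kind with 2 of the second. Values are therefore also given for KO 1 against WT 1, called the replicate 1 pair here, and for replicates 2 and 3 alone. The replicate 1 pair has no replicate check. For Stk11 the log2 CPM difference was -1.58 in the replicate 1 pair and -2.38 in replicates 2 and 3. KO 1 thus kept the most Stk11 of the KO libraries, and the part of this in the subset values was not tested. Of 14539 genes tested with edgeR's quasi-likelihood test, 490, or 3.37%, had an adjusted p-value under 0.05, and 2.15% were called higher in KO.

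Nr4a1 and Nr4a2 were the members that rose past the threshold in KO liver. Of the 10 members 9 passed the filter on low counts, and 2 of these 9, Nr4a1 and Nr4a2, were called, both higher, against 3.37% of all genes tested. None of the 6 tested early genes was called by edgeR, although 3 of them (Fos, Jun and Atf3) had an unadjusted p-value under 0.05, as did 26.3% of all genes tested. For these 6 genes limma voom, which called 2.97% of all genes, also made 0 calls, and DESeq2, which called 15.8%, called Fos, Jun and Atf3. The KO and WT libraries did not overlap for 4 members (Nr4a1, Nr4a2, Nr4a3 and Fos), all higher in KO, and such separation upward was found for 16.9% of all genes tested.

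Nr4a1 (ENSMUSG00000023034.7, chromosome 15, 101254269 to 101274795, plus strand, positions on GRCm38 here and for the other genes), also called Nur77, had 1775, 2996 and 2239 counts in KO 1 to 3 and 208, 447 and 380 counts in WT 1 to 3. Its normalised levels were 30.4, 53.9 and 47.5 CPM in KO and 4.10, 8.62 and 8.12 CPM in WT. The lowest KO library lay well above the highest WT library, and replicate 1 was the lowest of its group in both. The means were 43.97 ± 12.1 and 6.95 ± 2.48 CPM (SD, n = 3 each). This rise of 2.66 ± 0.343 on the log2 scale (SE), or 6.33-fold, passed the threshold (adjusted p = 0.0191 in edgeR).

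Nr4a2 (ENSMUSG00000026826.13, chromosome 2, 57106830 to 57124003, minus strand), also called Nurr1 and known best for its role in dopamine neurons, had 408, 440 and 724 counts in KO 1 to 3 and 22, 29 and 38 counts in WT 1 to 3. These are 7.00, 7.92 and 15.4 CPM in KO and 0.434, 0.559 and 0.812 CPM in WT. All 3 WT libraries were under 1 CPM and all 3 KO libraries far above it, with KO 3 the highest. The means were 10.1 ± 4.59 and 0.602 ± 0.193 CPM (SD, n = 3 each). The log2 fold change of 4.07 ± 0.415 (SE), or 16.7-fold, was the largest of the 9 tested members (adjusted p = 0.0103 in edgeR).

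Nr4a3 (ENSMUSG00000028341.9, chromosome 4, 48045153 to 48086447, plus strand), also called Nor1, was scarce, with 26, 59 and 28 counts in KO 1 to 3 and 4, 19 and 6 counts in WT 1 to 3. Its levels were 0.446, 1.06 and 0.594 CPM in KO and 0.0789, 0.366 and 0.128 CPM in WT. The groups did not overlap, though WT 2 came close to KO 1. The log2 fold change of 1.85 ± 0.64 (SE) did not pass the threshold (adjusted p = 0.132 in edgeR), and it was 2.74 without WT 2.

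The sizes of the 2 changes varied little when libraries were left out, but the calls did not all hold. Leaving out each library in turn gave log2 fold changes from 2.39 to 2.86 for Nr4a1 and from 3.63 to 4.33 for Nr4a2. The call of Nr4a1 was lost without KO 2, KO 3, WT 2 or WT 3 (edgeR adjusted p = 0.0564, 0.102, 0.104 and 0.104). That of Nr4a2 was lost without WT 2 or WT 3 (edgeR adjusted p = 0.0963 and 0.0613). Over all genes, 86, 35, 6 and 20 were called without KO 2, KO 3, WT 2 and WT 3, against 490 with all 6 libraries.

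**Figure D1:**
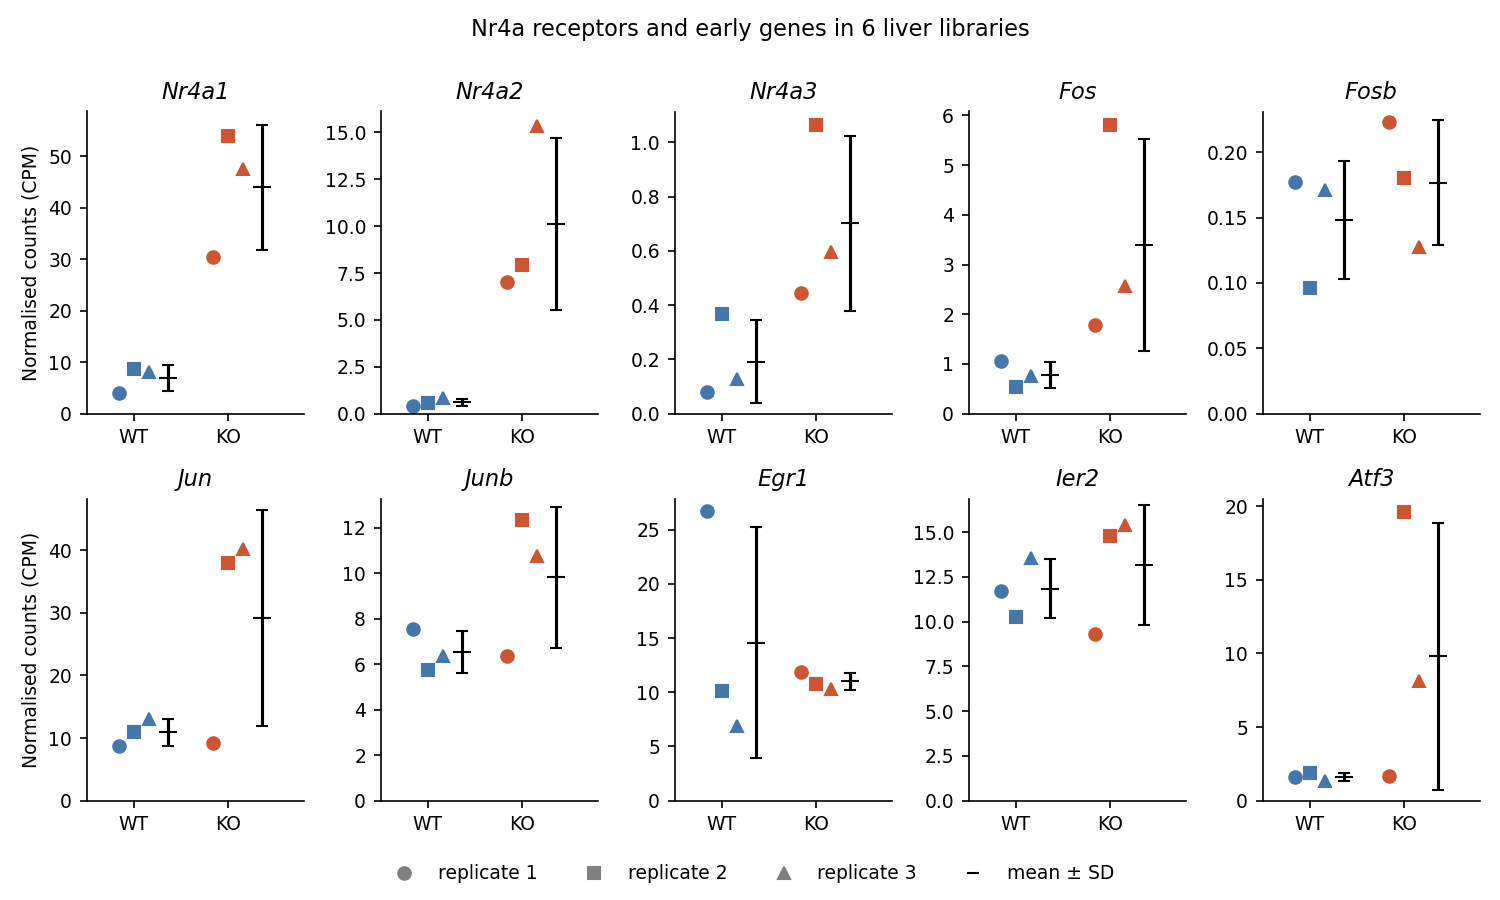
Normalised counts (CPM, linear axes starting at 0) of the 10 genes in each library, WT in blue and KO in red, with the marker shape giving the replicate number and black bars the mean ± SD of 3 libraries. All KO points of Nr4a1 and Nr4a2 lie above all WT points, whereas KO replicate 1 of Jun, Junb and Atf3 lies at the WT level and Egr1 and Ier2 overlap between the groups.

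Levels of different genes were compared per kilobase (kb) of annotated exon, as CPM per kb. In WT liver Ier2 was the highest at 7.77 ± 1.08 CPM per kb, followed by Jun (3.43 ± 0.666), Egr1 (3.25 ± 2.38) and Junb (2.84 ± 0.397), and then by Nr4a1 at 1.98 ± 0.706 (SD, n = 3 each). Atf3, Fos, Nr4a2, Nr4a3 and Fosb followed in that order. The WT ranges of Jun and Egr1, of Egr1 and Junb, and of Nr4a3 and Fosb overlapped, and every other pair of neighbours was apart. In KO liver Nr4a1 had the highest mean, 12.5 ± 3.46 CPM per kb, and the order below it was Jun, Ier2, Atf3, Junb, Nr4a2, Egr1, Fos, Nr4a3 and Fosb. There the ranges of all neighbours from Nr4a1 down to Fos overlapped, and only Fos, Nr4a3 and Fosb were apart from one another. Within each KO library Nr4a1 was the highest member, at 8.68, 15.4 and 13.5 CPM per kb in KO 1 to 3. The order from Jun down to Fos is not resolved by these ranges.

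Ratios within a library do not depend on how libraries were scaled. Per kb, the Nr4a1 level was 1.42, 1.58 and 1.34 times that of Ier2 in KO 1 to 3 and 0.152, 0.365 and 0.260 times in WT 1 to 3. These KO and WT ratios did not overlap, and neither did the ratios of Nr4a1 to Egr1 and to Jun. The ratio of Nr4a1 to Fos overlapped, at 11.4, 6.22 and 12.4 in KO and 2.58, 10.7 and 7.28 in WT. Among the 3 receptors, Nr4a1 made up 77.7% to 87.8% of their summed level per kb in KO and 90.7% to 92.5% in WT. The share of Nr4a2 was 16.5%, 11.2% and 21.7% in KO 1 to 3 and 8.30%, 5.19% and 7.89% in WT 1 to 3, and that of Nr4a3 was at most 2.30% in every library. Nr4a1 was thus the main family member by level in all 6 libraries.

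Among the AP-1 genes KO 1 lay near or within the WT range. Fos (ENSMUSG00000021250.13, chromosome 12, 85473890 to 85477273, plus strand), the classical partner of Jun, was low, with 1.78, 5.82 and 2.57 CPM in KO 1 to 3 and 1.06, 0.540 and 0.748 CPM in WT 1 to 3. Every KO library was above every WT library, with KO 2 the highest. The log2 fold change of 2.11 ± 0.512 (SE) did not pass the threshold (adjusted p = 0.0696 in edgeR), and it was 1.47 without KO 2 (adjusted p = 0.146 in edgeR). Fosb (ENSMUSG00000003545.3, chromosome 7, 19302696 to 19310051, minus strand) had only 13, 10 and 6 counts in KO 1 to 3 and 9, 5 and 8 counts in WT 1 to 3. It did not pass the filter on low counts, its groups overlapped, and a difference was not detectable at this depth.

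Jun (ENSMUSG00000052684.4, chromosome 4, 95049034 to 95052222, minus strand) was at 9.26 CPM in KO 1 but at 38.0 and 40.2 CPM in KO 2 and KO 3, against 8.79, 10.95 and 13.0 CPM in WT 1 to 3. KO 1 lay within the WT range and the other KO libraries far above it. Over all 6 libraries the log2 fold change was 1.41 ± 0.51 (SE; adjusted p = 0.144 in edgeR). Exons of Jun overlap those of Junos on the other strand, but Junos was at most 0.234 CPM in any library. Junb (ENSMUSG00000052837.6, chromosome 8, 84974484 to 84978718, minus strand) had 6.36, 12.4 and 10.7 CPM in KO 1 to 3 and 7.53, 5.73 and 6.37 CPM in WT 1 to 3. It again had KO 1 at the WT level, and its log2 fold change was 0.58 ± 0.263 (SE; adjusted p = 0.212 in edgeR). Exons of Junb overlap those of Prdx2 on the other strand, which was at 79.4 to 97.99 CPM, and the use of strand in counting is not given in the sources used here, so the Junb counts are uncertain.

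Atf3 (ENSMUSG00000026628.13, chromosome 1, 191170296 to 191218039, minus strand) had an uneven level among the KO libraries. It was at 1.70, 19.6 and 8.11 CPM in KO 1 to 3 and at 1.60, 1.87 and 1.37 CPM in WT 1 to 3. KO 1 lay inside the WT range and KO 2 stood highest. Its log2 fold change of 2.60 ± 0.779 (SE) did not pass the threshold (adjusted p = 0.1003 in edgeR). Its size depended on KO 2, without which it was 1.60 ± 0.618 (SE; adjusted p = 0.242 in edgeR).

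Egr1 and Ier2, which many stimuli induce through serum response factor, showed no rise that passed the test. Egr1 (ENSMUSG00000038418.7, chromosome 18, 34859823 to 34864984, plus strand) had 11.9, 10.8 and 10.3 CPM in KO 1 to 3 and 26.7, 10.1 and 6.86 CPM in WT 1 to 3. The KO libraries were close together and lay inside the WT range, in which WT 1 was by far the highest. The log2 fold change was -0.41 ± 0.468 (SE; adjusted p = 0.609 in edgeR), and it was 0.37 when WT 1 was left out. Ier2 (ENSMUSG00000053560.4, chromosome 8, 84661331 to 84662852, minus strand) had 9.30, 14.8 and 15.4 CPM in KO 1 to 3 and 11.7, 10.2 and 13.5 CPM in WT 1 to 3. Its groups overlapped, with KO 1 the lowest of all 6, and its log2 fold change was 0.15 ± 0.222 (SE; adjusted p = 0.69 in edgeR). These p-values do not show that Egr1 and Ier2 were equal in the groups.

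Between the subsets the values of Nr4a1 and Nr4a2 were close, and those of Jun lay furthest outside their error. In the replicate 1 pair the log2 CPM differences were 2.88 for Nr4a1, 3.90 for Nr4a2 and 2.04 for Nr4a3. In replicates 2 and 3 they were 2.59, 3.96 and 1.68. For the early genes the replicate 1 pair gave 0.72 for Fos, 0.07 for Jun, -0.24 for Junb, -1.16 for Egr1, -0.33 for Ier2 and 0.09 for Atf3. Replicates 2 and 3 gave 2.53, 1.70, 0.93, 0.34, 0.36 and 2.95 for the same 6 genes. All 6 early genes thus had the lower value in the replicate 1 pair, though these 6 values rest on KO 1 and WT 1 alone and are not independent. Over all genes tested the median was -0.02 in the replicate 1 pair and 0.002 in replicates 2 and 3. For Egr1 the lower value went with a high WT 1, at 26.7 CPM, while KO 1 was the highest KO library, at 11.9 CPM.

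The difference between the subsets was itself tested as an interaction of genotype with the Xist or Y-linked state in edgeR. With 1 library per group in the replicate 1 pair, the SE and p-value of this interaction rest on the spread between replicates 2 and 3, and the replicate 1 pair is assumed to vary like them. The interaction was called for Jun alone among the 9 members, with an interaction of 1.63 ± 0.221 on the log2 scale (SE; adjusted p = 0.0265 in edgeR), against 2.9% of all genes tested. The interaction was 1.18 for Junb, 1.48 for Egr1 and 3.00 for Atf3, with edgeR adjusted p-values of 0.0852, 0.0972 and 0.133. For Nr4a1 and Nr4a2 it was -0.29 ± 0.201 and 0.08 ± 0.77 (SE), with edgeR adjusted p-values of 0.453 and 0.965. A refit of replicates 2 and 3 of both groups called 6 of the 9 members, all higher: Nr4a1, Nr4a2, Fos, Jun, Junb and Atf3. That fit called 33.3% of all genes tested, 17.2% as higher. Jun had a log2 fold change of 1.70 ± 0.126 there (SE; adjusted p = 0.00101 in edgeR), and Egr1 and Ier2 were not called, at 0.31 ± 0.205 and 0.34 ± 0.161 (edgeR adjusted p = 0.297 and 0.16).

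Markers of other cell types differed between the same subsets. Red cell markers summed to 255 CPM in KO 1 and to 42.0 and 58.6 CPM in KO 2 and KO 3, against 188 to 432 CPM in WT. Their median log2 CPM difference was 0.18 in the replicate 1 pair and -2.93 in replicates 2 and 3. There the refit called 5 of 5 lower, where it called 33.3% of all genes tested. The interaction was called for 4 of 5 (Hba-a1, Hba-a2, Hbb-bt and Alas2), against 2.9% of all genes tested. Alas2 was at 10.1 CPM in WT 1 but at 134 and 121 CPM in WT 2 and WT 3. Its difference in the replicate 1 pair was 2.63, while the Hba and Hbb genes lay between -0.02 and 0.25. Macrophage markers summed to 187, 98.9 and 78.0 CPM in KO 1 to 3 and to 121 to 165 CPM in WT. Their median was 0.31 in the replicate 1 pair and -0.88 in replicates 2 and 3. The refit of replicates 2 and 3 called 4 of 8 lower and 1 higher, where it called 33.3% of all genes tested. The interaction was called for Vsig4 and Adgre1, at -2.20 and -1.79 on the log2 scale (edgeR adjusted p = 0.0306 and 0.0452). The part of these cell markers in the subset values of the early genes was not tested.

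**Figure D2:**
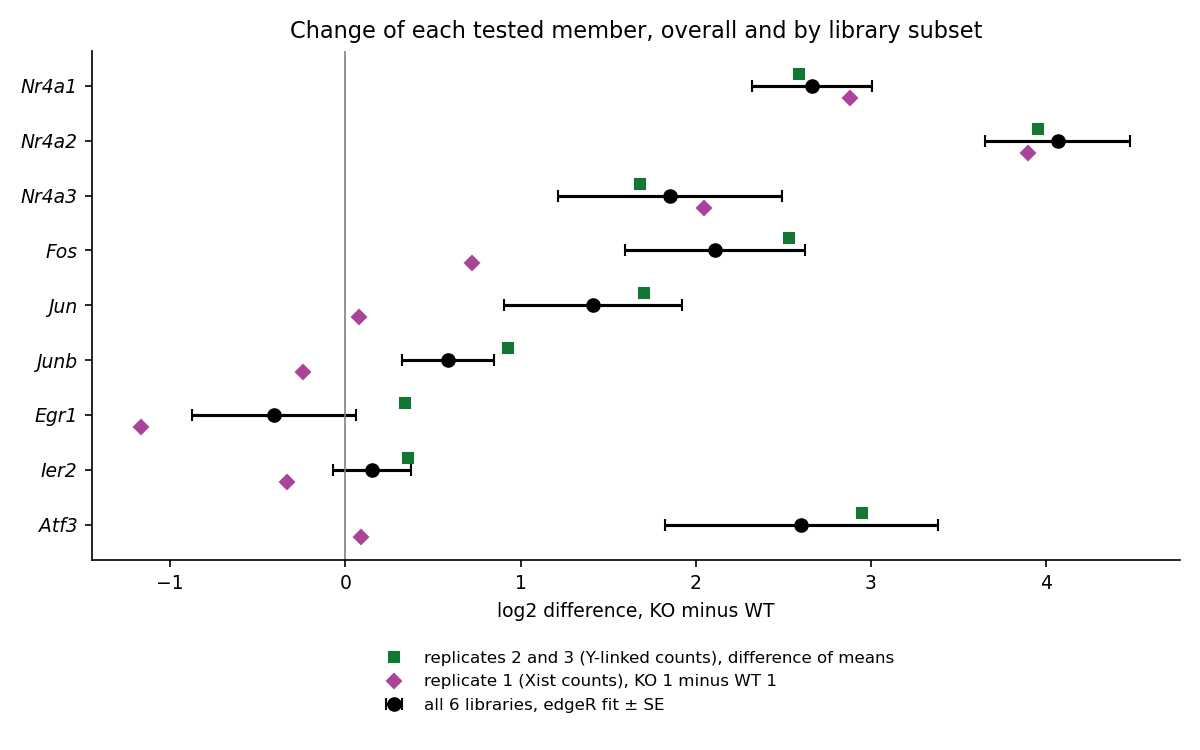
Log2 difference between KO and WT (horizontal axis) for the 9 tested members, as the edgeR fit over 6 libraries with its SE (black), the difference of mean log2 CPM in replicates 2 and 3 (green) and KO 1 minus WT 1 (purple). The 3 values of Nr4a1 lie between 2.59 and 2.88, whereas those of Atf3 run from 0.09 to 2.95.

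Other genes of the routes that act on the members were described from lists written for the members' pathways. The lists were chosen with earlier results of these data known. Some genes stand in more than 1 list, so the counts of the lists are not independent. Their counts and medians stand beside those of all genes tested, of which 2.15% were called higher. The median of all genes tested was 0.01 on the log2 scale. Of 18 targets of cyclic AMP and CREB, 8 were called higher and 0 lower, and the median log2 fold change was 1.22. It was 1.44 within replicates 2 and 3 and 0.83 within the replicate 1 pair. Leaving out 1 library at a time gave 12 calls in this list without KO 1, where 4473 of all genes were called. It gave 1 without KO 2 and 2 without WT 1, where 86 and 262 of all genes were called. It gave 0 without KO 3, WT 2 or WT 3, where 35, 6 and 20 of all genes were called. The phosphodiesterase genes Pde10a and Pde4d rose by 5.41 ± 0.689 and 2.88 ± 0.408 on the log2 scale (SE; edgeR adjusted p = 0.0185 and 0.0249). Pde10a was at 4.82 without KO 2, and its call was lost in limma voom (adjusted p = 0.0644). Crem, a CREB relative whose short form damps cyclic AMP responses, had 45.8, 52.0 and 61.0 CPM in KO 1 to 3 and 22.7, 28.1 and 21.6 CPM in WT 1 to 3. Its log2 fold change was 1.13 ± 0.163 (SE; adjusted p = 0.0255 in edgeR). Tat, the tyrosine aminotransferase gene, rose by 1.86 ± 0.314 (SE; adjusted p = 0.0344 in edgeR).

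Sik1, itself a CREB target and a substrate of LKB1, had 79.9, 288 and 189 CPM in KO 1 to 3 and 30.5, 24.0 and 42.4 CPM in WT 1 to 3 (log2 fold change 2.52 ± 0.474 (SE), adjusted p = 0.044 in edgeR). Ppargc1a, a coactivator of gluconeogenic genes, had 24.7, 75.2 and 76.4 CPM in KO and 12.3, 5.75 and 4.28 CPM in WT (2.98 ± 0.565, adjusted p = 0.0446 in edgeR). Both genes separated the groups, with KO 1 the lowest KO library. Per1, a clock gene with a CRE, and the phosphatase gene Dusp1 were higher in every KO library but missed the threshold, at 1.79 ± 0.433 and 1.41 ± 0.288 (edgeR adjusted p = 0.0687 and 0.0507). Pck1 was at 0.98 ± 0.295 (adjusted p = 0.1005 in edgeR). G6pc was at 0.09 ± 0.346 over all 6 libraries (adjusted p = 0.889 in edgeR), with 1.02 in the replicate 1 pair and -0.49 in replicates 2 and 3.

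Of 26 other early genes 22 were tested, 2 were called higher and 0 lower, against 2.15% of all genes called higher. Their median log2 fold change was 1.11. For replicates 2 and 3 this median was 1.54 and for the replicate 1 pair it was -0.14. Leaving out 1 library at a time gave 16 calls without KO 1, where 4473 of all genes were called. It gave 1 without KO 2 or WT 1 and 0 without KO 3, WT 2 or WT 3. Those refits called from 6 to 262 of all genes. The called genes were Myc, a growth regulator, at 3.35 ± 0.489, and Btg2, an antiproliferative gene, at 2.61 ± 0.461 (edgeR adjusted p = 0.0258 and 0.0386). Both calls were lost in limma voom, and without KO 2 the values were 2.72 and 2.02. In this list limma voom called 1 other gene and DESeq2 called 12, where they called 2.97% and 15.8% of all genes. Gadd45g was at 2.18 ± 0.459 (adjusted p = 0.0541 in edgeR). Among 12 other genes of the AP-1 and ATF families 11 were tested, the median was 0.13, and Atf5, a stress-response factor, was the 1 gene called, at 1.94 ± 0.203 (adjusted p = 0.0109 in edgeR), a call lost without KO 3, WT 2 or WT 3. Jund, Maff and Atf4 were at 0.55, -0.41 and 0.32 (edgeR adjusted p = 0.256, 0.363 and 0.429).

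Genes that encode parts of the routes themselves were not called by edgeR. Of 23 genes for CREB, CRTC, serum response factor, protein kinase A and the MAP kinases, edgeR and limma voom called 0 and DESeq2 called 3, where it called 15.8% of all genes. Of these 23 genes 5 had an unadjusted p-value under 0.05, as did 26.3% of all genes tested, and their median log2 fold change was 0.03. The smallest adjusted p-values were those of Map2k1 at 0.71 and Crtc3 at -0.60, followed by Elk3 at -0.90 and Crtc2 at 0.44 (edgeR adjusted p from 0.0846 to 0.159). Genes that ERK signalling induces as feedback had a median of -0.46. None of the 9 tested was called by edgeR or limma voom, 2 had an unadjusted p-value under 0.05 and DESeq2 called 1. Spry4, an inhibitor of ERK signalling, had 3.95, 2.16 and 2.53 CPM in KO 1 to 3 and 15.7, 4.92 and 3.89 CPM in WT 1 to 3. WT 1 was by far the highest, as for Egr1, and the log2 fold change was -1.50 ± 0.56 (SE; adjusted p = 0.152 in edgeR) and -0.62 without WT 1. Spred2, Etv5 and Spred1 were at 0.34, -0.55 and -0.46, with edgeR adjusted p-values from 0.165 to 0.292.

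Of 4 glucose genes known as Nr4a1 targets in liver 3 were tested and 1 was called. Fbp1, a gluconeogenic enzyme, rose by 1.62 ± 0.231 (SE; adjusted p = 0.0253 in edgeR), Eno3 was at 0.60 ± 0.209 (adjusted p = 0.133 in edgeR), G6pc is given above and Fbp2 did not pass the filter. Among 16 clock genes 15 were tested, 2 were called higher and 0 lower, against 2.15% of all genes called higher. Their median was -0.14, and Nfil3 and Per1 are also in the list of cyclic AMP and CREB targets. Arntl and Nfil3 rose by 1.13 ± 0.19 and 0.98 ± 0.179 (SE; edgeR adjusted p = 0.0334 and 0.0417), and Hlf was at -0.69 ± 0.154 (adjusted p = 0.0594 in edgeR). The calls of Fbp1, Arntl and Nfil3 were each lost without any 1 of the 5 libraries other than KO 1. The part of the clock genes in the values of the members was not tested.

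**Figure D3:**
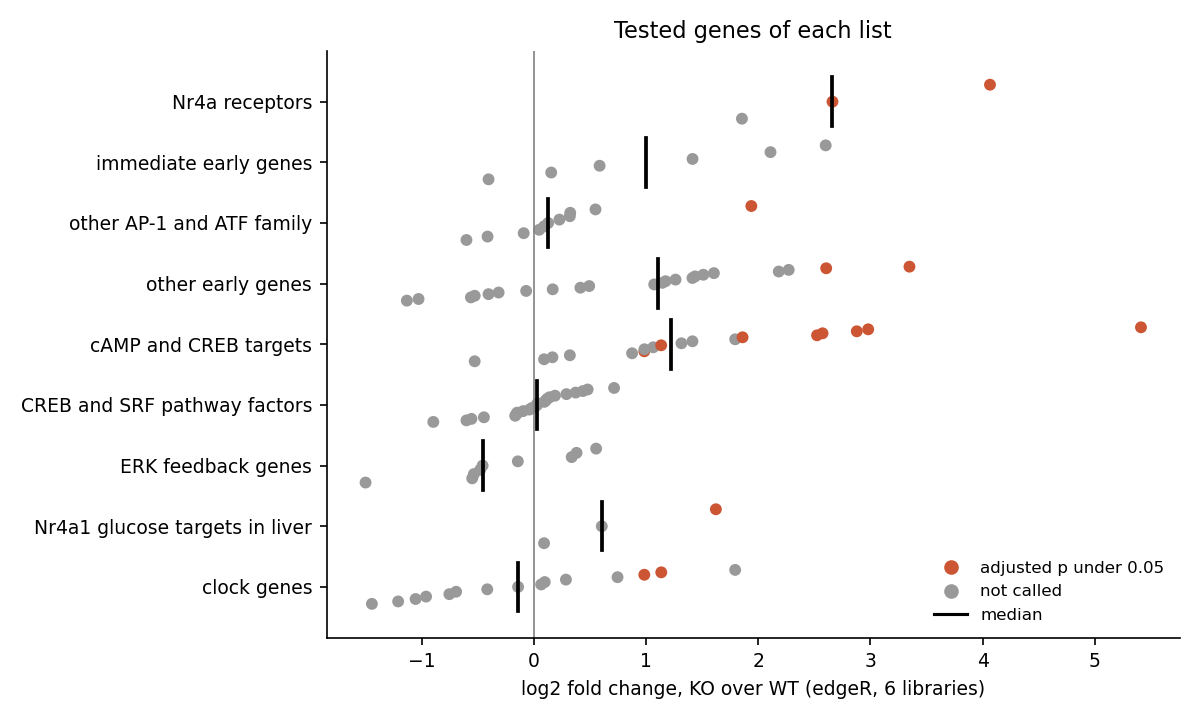
Log2 fold changes (horizontal axis, KO over WT, edgeR over 6 libraries) of the tested genes of each list, with called genes in red, other genes in grey and the list median as a black line. Nr4a receptors have the highest median at 2.66, and the list of cyclic AMP and CREB targets holds 8 called genes.

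The genes with the most similar profiles were found by the Euclidean distance between log2 CPM profiles over the 6 libraries, centred on each gene's mean, among 11972 other genes with a mean of at least 1 CPM. Nearest to Nr4a1 were Gm10073 (distance 0.476), Camk2n2 (0.857), Fh1 (0.862), Etnk2 (0.866) and Gtdc1 (0.918), none of them a member. Nr4a2 ranked 148 and Fos 172 by closeness to Nr4a1, Jun 387, Atf3 405, Junb 1599, Ier2 4144 and Egr1 10024. Nearest to Fos were Adh7 (0.399), Slfn8 (0.442), Clcf1 (0.454), Ephb3 (0.458) and Oas1b (0.541). Their shared profile had KO 2 highest and KO 1 between the WT libraries and KO 3. All distances include the difference between the groups and describe these 6 libraries only.

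**Figure D4:**
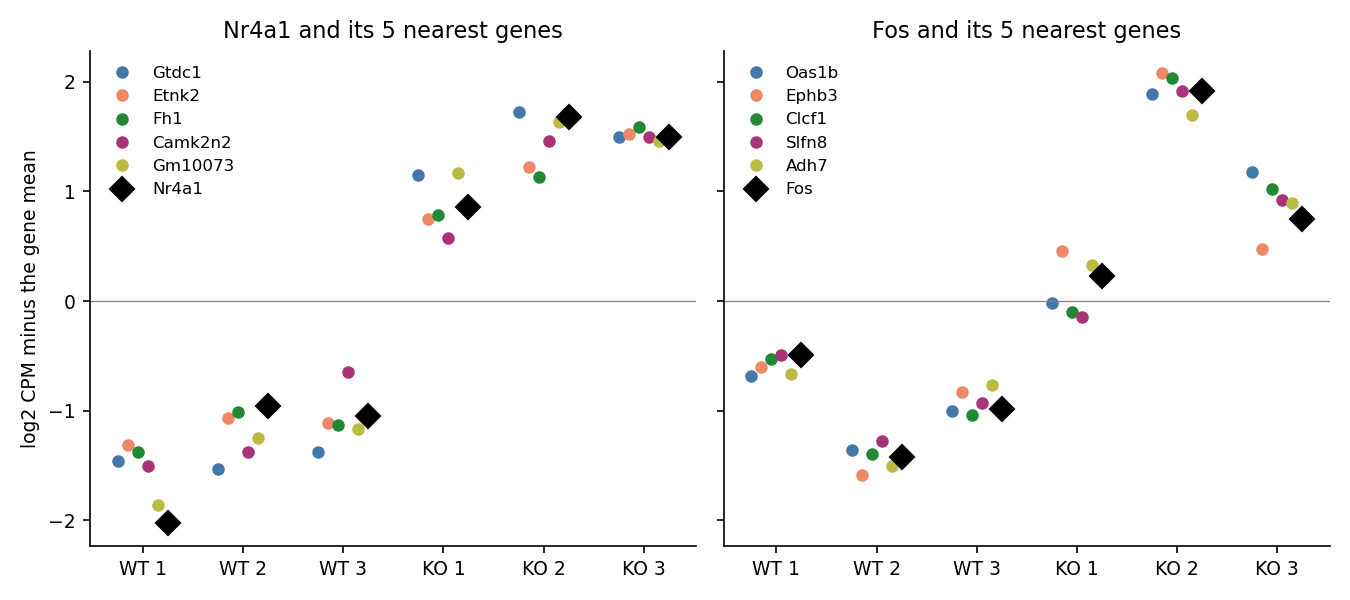
Log2 CPM minus the gene's mean over the 6 libraries (vertical axis) for Nr4a1 (left, black) and Fos (right, black) and the 5 genes nearest to each (coloured), by library. The genes near Nr4a1 are above their mean in all 3 KO libraries, and those near Fos are highest in KO 2.

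The tissue was checked with markers of its cell types. Hepatocyte markers summed to 28817 to 86582 CPM in KO and 105027 to 148916 CPM in WT, with Alb the largest part. Of the 8, edgeR called 0, limma voom 1 and DESeq2 4, and 2 had an unadjusted p-value under 0.05, both lower. Over all genes tested, limma voom called 2.97%, DESeq2 called 15.8% and 26.3% had an unadjusted p-value under 0.05. The KO libraries were all below the WT libraries for 6 of the 8 hepatocyte markers, against 2251 of all 14539 genes tested. Hnf4a went the other way, at 542 to 670 CPM in KO and 524 to 539 CPM in WT. Endothelial markers summed to 79.6 to 126 CPM in KO and 154 to 207 CPM in WT. Of these 8, edgeR and limma voom called 0 and DESeq2 4, and 6 had an unadjusted p-value under 0.05, all lower. The KO libraries were all below the WT libraries for 7 of these 8. Neutrophil markers were near 0, at 1.17 to 2.14 CPM in KO and 0.79 to 1.15 CPM in WT, and Ly6g had no count in any library. Over all 6 libraries the summed levels of macrophage, lymphocyte, stellate, bile duct and red cell markers overlapped between the groups, though those of macrophages and red cells differed by subset as given above. Mitochondrially encoded genes held 7.69% to 10.2% of the counts in KO and 6.14% to 6.95% in WT. The part of these differences in the values of the members was not tested, and in bulk tissue a change in the number of cells of a type and a change in RNA per cell cannot be told apart.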

How the data were processed

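The authors deposited 1 table of expected counts, estimated reads per gene that are not scaled between libraries, for 6 libraries of liver poly(A) RNA, and all 6 columns were matched to samples by the labels' descriptions. The submitters' processing notes name bcl2fastq 2.17, cutadapt 1.18, STAR 2.7.0f, RSEM 1.3.1 and the build mm9. All 55450 versioned gene identifiers matched GENCODE release M21 on GRCm38, so gene positions and exon lengths are those of GRCm38. Use of strand is not given in the sources used here.

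Expected counts were rounded, filtered with filterByExpr (14539 genes kept), scaled by TMM and tested with edgeR 4.0.16 (quasi-likelihood, group only, R 4.3.3), with Benjamini-Hochberg adjustment over all genes. The SE is the log2 fold change divided by the square root of F. Log2 CPM used a prior count of 2. A floor of 3 counts is 0.0515 to 0.0641 CPM. Alternatives included DESeq2 1.42.0 and limma 3.58.1. The test was checked on simulated counts that held at most a group effect. That check does not cover effects of the Xist or Y-linked state or of a single library.

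The members and the gene lists were chosen with earlier results of these data known. All members are named, with up to 4 genes of each pathway list by smallest adjusted p-value, 7 further genes (Sik1, Crem, Per1, Dusp1, Pck1, G6pc and Ppargc1a), Stk11 and the 5 nearest profiles. Marker lists are given as summed levels, and the markers named for an interaction were chosen after their values were seen (1 further gene is not reported here). Listed symbols of an older form (Cyr61, Ctgf, Mkl1, Mkl2 and Tf) were matched by their current names.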

Additional observations from a re-analysis of the deposited data

Results flagged for a closer look

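For 3 of the named genes and 6 cell type markers of red cells and macrophages the difference between KO and WT was itself different between the libraries with Y-linked counts and the pair with Xist counts, by an interaction in edgeR adjusted over all genes tested. With 1 library per group on the Xist side, that side has no replicate check, and the spread behind each p-value comes from replicates 2 and 3. For Jun the interaction was 1.63 on the log2 scale (adjusted p = 0.0265 in edgeR), with 9.26 CPM in KO 1 and 8.79 CPM in WT 1 against 38.0 and 40.2 CPM in KO 2 and KO 3. For Pde4d it was 1.76 (adjusted p = 0.0175 in edgeR), with 16.5 CPM in KO 1, 49.6 and 44.8 CPM in KO 2 and KO 3 and 4.58 to 5.60 CPM in WT. For Ppargc1a it was 2.91 (adjusted p = 0.0103 in edgeR), with 24.7 CPM in KO 1, 75.2 and 76.4 CPM in KO 2 and KO 3 and 4.28 to 12.3 CPM in WT. Among the markers the interaction was negative, that is, the KO libraries with Y-linked counts were lower against their WT libraries than KO 1 was against WT 1. It was -2.97 for Hba-a1, -3.21 for Hba-a2, -3.11 for Hbb-bt and -5.81 for Alas2 (red cells; edgeR adjusted p from 0.00508 to 0.0427). For the macrophage markers Vsig4 and Adgre1 it was -2.20 and -1.79 (edgeR adjusted p = 0.0306 and 0.0452). Hba-a1 and Hba-a2 are near-identical copies between which reads can be split, so their values are uncertain. Alas2 was at 10.1 CPM in WT 1 but at 134 and 121 CPM in WT 2 and WT 3, so its interaction rests in part on 1 low WT library.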

How the results depend on the processing

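In all 14 alternatives Nr4a1 and Nr4a2 were higher in KO, and both were called except in the refits without 1 library that the report names. The count of members called was 2 over all 6 libraries, 5 by DESeq2, 6 in the libraries with Y-linked counts, 3 with no filter on low counts, and from 0 to 6 when 1 library was left out. The count of all genes called, 490, was 2290 by DESeq2, 771 with no filter, 4847 in the libraries with Y-linked counts, 1504 with the Xist or Y-linked state as a term, and from 6 to 4473 when 1 library was left out (6 without WT 2, 4473 without KO 1). Same-numbered KO and WT libraries correlated at 0.178, 0.0443 and 0.0679 in their deviations from the group means, so the replicate numbers were not taken as pairs. With the replicate number as a block 105 genes and 2 members (Nr4a1 and Nr4a2) were called, and in the list of cyclic AMP and CREB targets 0 of 18 genes in place of 8. Egr1 changed direction, from -0.41 to 0.37 without WT 1 (range without 1 library -0.74 to 0.37) and to 0.31 in the libraries with Y-linked counts. G6pc changed from 0.09 to -0.31 without KO 1, to -0.07 without WT 1 (range -0.31 to 0.35) and to -0.47 in the libraries with Y-linked counts. Of 126 alternatives for single members, 106 kept the direction and the side of the threshold. Why these counts differ was not tested. With 3 mice per group and 4 to 59 counts per library for Fosb and Nr4a3, changes of the low genes are weakly resolved.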
